A study of Mus musculus with 33 samples.

Results

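Ezrin (Ezr), radixin (Rdx), moesin (Msn), merlin (Nf2) and the scaffolds Slc9a3r1 and Slc9a3r2 are 6 of the 38393 features in each deposited gene table, and all 6 passed the filter on low counts in every comparison. They were chosen by name, with measured values of these same libraries in view. The authors' deposited table lists Ezr at an adjusted p under 0.05 in the CyrMut cerebellum and Msn in the Mir7DKO cerebellum of experiment 2, and the other 4 genes are relatives and partners of those 2. All values of the 6 genes in those 2 comparisons are therefore treated as used in the choice and given as a description with no test. The other mutant comparisons and the comparison of wild-type tissues were tested, although the latter shares its wild-type cerebella with the Mir7DKO comparison of experiment 2. No cutoff on a value defines the set, so no gene lies just outside it.

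The libraries hold polyadenylated RNA of whole cerebellum or cortex from male C57Bl/6J mice at 1 month of age, and the submitters describe the replicates as biological. In CyrMut mice the site for miR-7 within Cyrano, a long noncoding RNA, is mutated, CyrKO mice lack both copies of Cyrano, and Mir7DKO mice lack both copies of the microRNA genes Mir7a1 and Mir7b. Experiment 1A holds 3 wild-type and 4 CyrMut cerebella, and experiment 1B holds 4 wild-type, 4 CyrKO and 4 Mir7DKO cerebella. Experiment 2 holds 4 wild-type and 3 Mir7DKO libraries of cerebellum and the same numbers of cortex. The 2 mutants of experiment 1B share their wild-type libraries.

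Ezrin, radixin and moesin, together called the ERM proteins, tie actin filaments to the plasma membrane. Each folds its FERM domain onto its own tail until the lipid PIP2 and phosphorylation of the tail open it, and the open protein then holds membrane proteins through the FERM domain and actin through the tail. Merlin has the same FERM domain, lacks the usual actin-binding tail and is a tumour suppressor that acts through the Hippo pathway. Slc9a3r1 (NHERF1) and Slc9a3r2 (NHERF2) are PDZ scaffolds that bind the FERM domain and connect it to channels, transporters and receptors. Ezrin is the usual ERM protein of epithelial microvilli, including those of the choroid plexus, and is also found in the fine processes of astrocytes. Moesin is abundant in endothelium and in cells of the leukocyte lineage.

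miR-7 binds short matches to its seed in 3′ UTRs, and the mutants act on miR-7 or on its partner Cyrano, so the mature sequences and the matches in the 6 genes are shown first. The seed, bases 2 to 8, is in capitals and is the same in both microRNAs, which are credited to RefSeq for GRCm38.p6.
mmu-miR-7a-5p: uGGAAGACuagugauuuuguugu
mmu-miR-7b-5p: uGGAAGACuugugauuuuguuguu

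The longest annotated 3′ UTR of each gene (GENCODE M21 on GRCm38) was searched on the transcript strand alone for GTCTTCC, the match to bases 2 to 8, and for TCTTCCA, the match to bases 2 to 7 followed by A. A UTR with GTCTTCCA holds both of these motifs overlapping, and TCTTCC on its own is the weaker 6-mer. The following windows of 30 bases hold every such 7-base match in the 6 genes, in capitals, and none of them is the 8-base match.
Ezr site 1: gttttcagtttGTCTTCCttcctttcgcgg
Ezr site 2: atcagagagggGTCTTCCccagctcccctg
Msn site: atcctcagatcTCTTCCAgctaggacagag
Nf2 site: gtatttgccgaGTCTTCCctggctgctctg
Slc9a3r1 site: ccagacaagaaGTCTTCCctcaactacgtg

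The Ezr windows lie on the minus strand at chr17:6738355-6738384 and chr17:6738163-6738192, in a 3′ UTR of 1262 bases. The Msn window lies on the plus strand at chrX:96167472-96167501, the Nf2 window on the minus strand at chr11:4766844-4766873 and the Slc9a3r1 window on the plus strand at chr11:115180799-115180828. The Nf2 match is in 1 of the 7 coding transcripts of that gene. Rdx, whose longest 3′ UTR has 2256 bases, and Slc9a3r2, whose longest has 945 bases, hold no 7-base match in this annotation. The 6-mers on their own number 3 in Nf2, 2 in Slc9a3r1, 1 each in Msn and Slc9a3r2 and 0 in Ezr and Rdx. Among all 21045 protein-coding genes with a 3′ UTR, 23.2% hold a match of 7 or 8 bases. Among genes whose 3′ UTR is within 10% of the same length, the share is 21.6% for Ezr, 35.1% for Msn, 38.3% for Nf2, 13.5% for Slc9a3r1, 37.8% for Rdx and 19.5% for Slc9a3r2. A match describes the letters of the annotated UTR and was not measured as a site of binding.

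Ezr (ENSMUSG00000052397) runs from 6738041 to 6782784 on chromosome 17, Rdx (ENSMUSG00000032050) from 52047173 to 52088735 on chromosome 9 and Msn (ENSMUSG00000031207) from 96096042 to 96168552 on chromosome X. Nf2 (ENSMUSG00000009073) runs from 4765845 to 4849536 on chromosome 11, Slc9a3r1 (ENSMUSG00000020733) from 115163341 to 115181181 on chromosome 11 and Slc9a3r2 (ENSMUSG00000002504) from 24639286 to 24650327 on chromosome 17. Exons of Ezr share 4 bases with Sytl3 and exons of Msn share 136 bases with the small RNA gene Gm24718, both on the opposite strand. The libraries held 6.89 to 24.94 M counts. Levels are CPM, counts per M counts of a library scaled by TMM, with the SD between libraries. Raw counts per library ran from 156 to 769 for Ezr, 619 to 2926 for Rdx, 242 to 1997 for Msn, 771 to 2226 for Nf2, 212 to 1067 for Slc9a3r1 and 233 to 1841 for Slc9a3r2.

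Cyrano lay between 74.7 and 88.3 CPM in the CyrKO libraries and between 1579 and 1970 CPM in their wild types. All 8 cerebellar neuron markers were higher in wild-type cerebellum and all 8 cortical neuron markers were higher in wild-type cortex. The summed level of 14 choroid plexus markers separated libraries of the same group, with a lowest and highest library of 46.4 and 1234 CPM in CyrMut and of 31.7 and 410.2 CPM in the wild types of experiment 1B. These sums are given beside each result they move with.

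**Figure D1:**
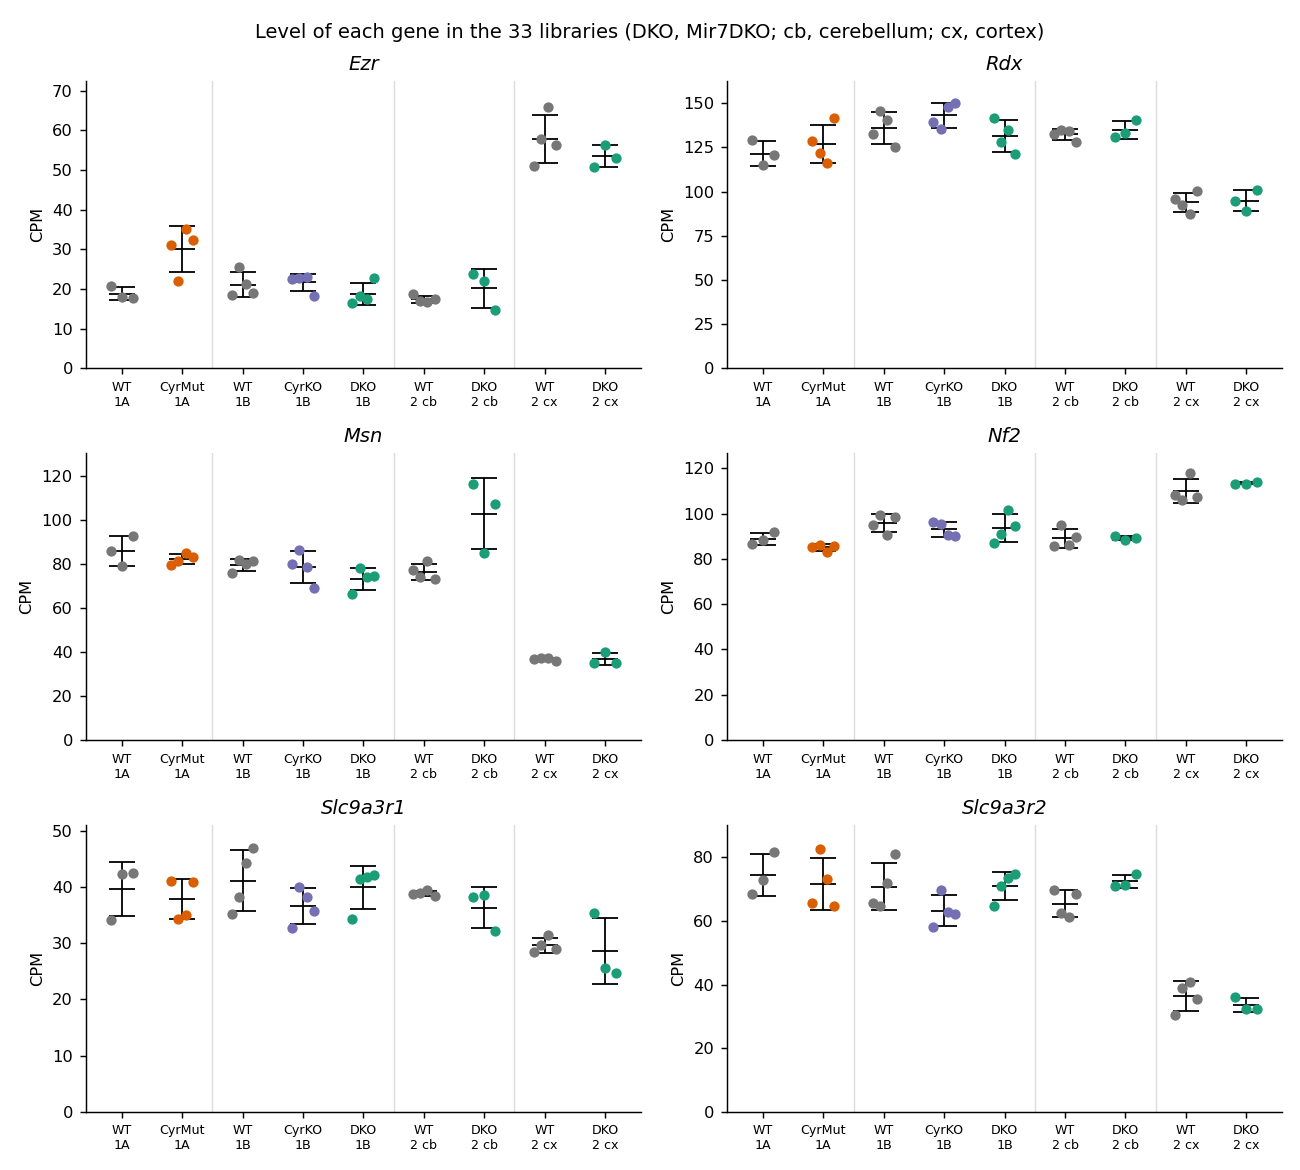
Level of each of the 6 genes in CPM (vertical axes, from 0) in the 33 libraries, by genotype, experiment and tissue (horizontal axes). Points are libraries and bars are the mean ± SD. Ezr is the gene whose cortical libraries stand far above the cerebellar ones, and Msn and Slc9a3r2 are lower in cortex. Levels left and right of a grey line were scaled separately. Mir7DKO of experiment 1B was also scaled apart from the wild-type and CyrKO points shown beside it.

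The wild-type tissues of experiment 2 were compared to ask which ERM gene each tissue expresses. Ezr was lower in cerebellum than in cortex, at 17.1 ± 0.85 CPM against 59.0 ± 6.18 CPM (SD, n = 4 each), while its paralogs Rdx and Msn were higher in cerebellum. Msn was at 74.7 ± 3.45 CPM in cerebellum and 37.6 ± 0.65 CPM in cortex, and Rdx at 129.6 ± 2.83 CPM and 96.0 ± 5.42 CPM. Merlin was lower in cerebellum and both NHERF scaffolds were higher. All 6 genes passed the edgeR test, 4 of them higher and 2 lower in cerebellum, and 74.7% of the 14001 genes tested passed it, so that passing this test is common between these tissues.

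Ezr lay at 52.4, 59.0, 67.3 and 57.4 CPM in the 4 wild-type cortices and at 18.2, 16.6, 16.2 and 17.1 CPM in the 4 wild-type cerebella. Every cortex was far above every cerebellum, and the log2 change from cortex to cerebellum was -1.79 (SE 0.078, edgeR adjusted p = 9.07e-16). Only 24.3% of the genes tested differed by more than 1 on the log2 scale, and the median size of the change over all genes was 0.47. Choroid plexus markers summed to between 17.5 and 420.9 CPM in these cortices and between 34.4 and 40.0 CPM in the cerebella. The cortex with the lowest choroid plexus sum, replicate 2, held Ezr at 59.0 CPM. When the choroid plexus index, each library's mean log2(CPM + 1) over these markers, entered the fit as an alternative chosen after the data were seen, the change of Ezr was -1.74 (SE 0.092). The part of choroid plexus RNA in the cortical level was not tested otherwise.

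Msn lay at 37.6, 38.0, 38.1 and 36.7 CPM in cortex and at 75.4, 72.4, 79.3 and 71.8 CPM in cerebellum. The cortices lay close together and none came near the cerebella, and the log2 change was 0.99 (SE 0.058, edgeR adjusted p = 2.43e-13). All 10 microglia markers were lower in cerebellum, with a summed level of 113.4 to 126.0 CPM in cerebellum against 380.9 to 405.9 CPM in cortex, and the endothelial markers summed to 300.7 to 320.3 CPM against 323.4 to 344.7 CPM. Their part in the level of Msn was not tested. In whole tissue, fewer cells of a type and less RNA per cell cannot be told apart.

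Rdx lay at 98.2, 94.4, 89.3 and 102.0 CPM in cortex and at 129.9, 131.7, 131.2 and 125.5 CPM in cerebellum, a log2 change of 0.43 (SE 0.049, edgeR adjusted p = 3.33e-08). The size of this change, like those of Nf2 and Slc9a3r1, was below the median over all genes tested, although the groups did not overlap. Nf2 lay at 110.8, 108.6, 120.5 and 109.4 CPM in cortex and at 83.7, 92.7, 84.3 and 88.0 CPM in cerebellum, a log2 change of -0.37 (SE 0.051, edgeR adjusted p = 9.73e-07). Merlin and Ezr were thus the members with more RNA in cortex.

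The NHERF scaffolds both had more RNA in cerebellum. Slc9a3r2 lay at 31.1, 39.9, 41.7 and 35.99 CPM in cortex and at 68.1, 61.1, 59.9 and 67.2 CPM in cerebellum, a log2 change of 0.79 (SE 0.076, edgeR adjusted p = 2.18e-09). Slc9a3r1 lay at 29.1, 30.3, 32.2 and 29.5 CPM in cortex and at 37.8, 38.0, 38.6 and 37.7 CPM in cerebellum, a log2 change of 0.33 (SE 0.065, edgeR adjusted p = 7.86e-05). Slc9a3r1 was the member with the smallest tissue difference. In 68.3% of all genes tested the groups did not overlap, as in all 6 members.

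Levels of different genes were compared per kb of the longest coding transcript. In cerebellum the order was Slc9a3r2 at 30.003 ± 1.97 CPM per kb, Rdx at 29.6 ± 0.65, Slc9a3r1 at 19.8 ± 0.22, Msn at 19.5 ± 0.90, Nf2 at 18.5 ± 0.87 and Ezr at 5.39 ± 0.27 (SD, n = 4). Slc9a3r2 and Rdx did not differ beyond their spread, and neither did Slc9a3r1, Msn and Nf2, while Ezr stood below them all. In cortex the order was Nf2 at 23.8 ± 1.18 CPM per kb, Rdx at 21.9 ± 1.24, Ezr at 18.7 ± 1.95, Slc9a3r2 at 17.4 ± 2.21, Slc9a3r1 at 15.7 ± 0.72 and Msn at 9.79 ± 0.17. There the ranges of neighbours overlapped from Nf2 down to Slc9a3r1, and Msn stood below the rest. The gene lowest per kb was Ezr in cerebellum and Msn in cortex. This order rests on the length taken, since the exons of all transcripts cover 6327 bases in Msn against 3842 bases in its longest coding transcript, and 6825 against 4720 bases in Nf2.

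Of the summed CPM per kb of the 3 ERM genes, Ezr made up 9.91% ± 0.56 in cerebellum and 37.0% ± 3.12 in cortex (SD, n = 4 each). Rdx made up 54.4% ± 0.80 and 43.6% ± 2.99, and Msn 35.7% ± 0.95 and 19.4% ± 0.59. Each share differed with an exact two-sided permutation p of 0.0286 (adjusted over the 3 shares, 0.0286), the smallest that 4 against 4 libraries allow. The 3 shares of a library are parts of 1 sum, so their tests are not independent. The test took the libraries as unpaired, since the labels do not say whether a cerebellum and a cortex came from 1 mouse. Radixin was thus the largest share in cerebellum, where no library overlapped another gene's range. In cortex the ranges of Rdx, 39.6% to 46.0%, and Ezr, 33.9% to 41.2%, overlapped. With the union of all exons as the length, chosen after the data were seen, Msn made up 26.3% in cerebellum and 13.3% in cortex.

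**Figure D2:**
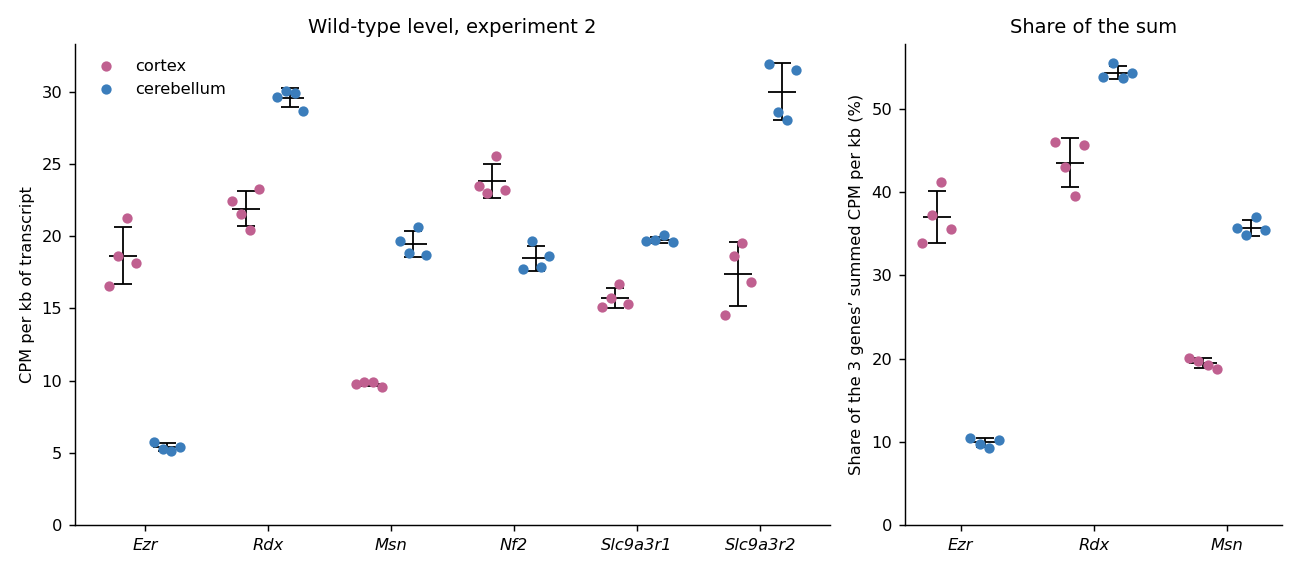
Left, wild-type level of the 6 genes in CPM per kb of the longest coding transcript in 4 cortices and 4 cerebella of experiment 2; right, share of Ezr, Rdx and Msn in their summed CPM per kb, in percent. Points are libraries and bars the mean ± SD, both axes start at 0, and the mean share of Ezr is 9.91% in cerebellum against 37.0% in cortex.

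In the CyrMut cerebellum, Ezr was the member chosen for its change, and its values are a description. It lay at 20.7, 18.03 and 17.6 CPM in the wild types and at 31.2, 21.9, 35.2 and 32.3 CPM in the CyrMut libraries of experiment 1A. The groups did not overlap, and the nearest libraries were CyrMut replicate 2 and wild-type replicate 1. Wild types averaged 18.8 ± 1.67 CPM (SD, n = 3) and CyrMut libraries averaged 30.1 ± 5.77 CPM (SD, n = 4). The log2 change was 0.69 (SE 0.14). The authors' deposited table lists a log2 change of 0.68 for Ezr with an adjusted p of 0.0184. In the edgeR fit 0 of 6 members and 0.00673% of the 14866 genes passed, and nothing is read from this count because the comparison was used in the choice. Groups did not overlap in 5.39% of the genes tested.

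The 3 CyrMut libraries with the highest Ezr levels were also those with the highest choroid plexus sums. The choroid plexus markers summed to 380.9, 40.7 and 40.1 CPM in wild-type replicates 1 to 3 and to 974.9, 46.4, 1234 and 827.4 CPM in CyrMut replicates 1 to 4. The lowest CyrMut level of Ezr, in replicate 2, and its highest wild-type level, in replicate 1, fell in the libraries whose choroid plexus sum stood apart from their group. None of these 7 libraries but CyrMut replicate 2 had a marker of the 14 at 0. With that index in the fit the log2 change of Ezr was 0.37 (SE 0.099). Without CyrMut replicate 2 it was 0.81 (SE 0.094). Ependymal markers summed to 10.0, 7.09 and 9.23 CPM in the wild types and to 15.3, 10.2, 15.8 and 12.1 CPM in CyrMut, without overlap. All 5 erythrocyte markers had lower means in CyrMut (median log2 change -1.17), with summed levels that overlapped. These sums were 446.2, 369.9 and 1686 CPM in wild-type replicates 1 to 3 and 387.6, 344.1, 454.8 and 293.8 CPM in CyrMut. Wild-type replicate 3 thus stood far above all the other libraries. Meningeal fibroblast markers summed to 269.0, 301.8 and 297.3 CPM in wild-type replicates 1 to 3. In CyrMut replicates 1 to 4 they summed to 330.7, 216.6, 312.7 and 348.0 CPM, with overlap. By log2 change 2 of these 7 markers were higher in CyrMut and 5 lower. The part of these cell types in the change was not tested beyond the fits given.

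The other 5 members differed little between CyrMut and wild type. Their log2 changes ran from -0.06 for Slc9a3r1 (SE 0.099) to 0.06 for Rdx (SE 0.072). Msn lay between 79.1 and 92.7 CPM in wild type and between 79.3 and 84.7 CPM in CyrMut. Nf2 lay at 86.4, 88.2 and 91.7 CPM in wild type and at 85.4, 86.2, 83.1 and 85.6 CPM in CyrMut. Its groups did not overlap, at a log2 change of -0.06 (SE 0.051). Rdx ranged from 115.1 to 129.0 CPM in wild type and from 116.3 to 141.4 CPM in CyrMut.

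Ezr levels and choroid plexus sums were also set side by side in the other groups. In wild-type cerebellum of experiment 1B, replicate 2 had the highest Ezr level, 25.5 CPM against 18.4, 21.2 and 19.1 CPM, and the highest choroid plexus sum, 410.2 CPM against 31.7 to 38.3 CPM. In Mir7DKO cerebellum of experiment 1B, replicate 4 had 22.8 CPM of Ezr against 16.5 to 18.2 CPM in the others, and a choroid plexus sum of 342.5 CPM against 31.1 to 38.5 CPM. In Mir7DKO cerebellum of experiment 2, replicates 1 and 2 had 23.7 and 22.1 CPM of Ezr with sums of 740.2 and 477.0 CPM, and replicate 3 had 14.6 CPM with a sum of 33.4 CPM. The highest Ezr level was in the library with the highest choroid plexus sum in 6 of the 9 groups, against 4 of 9 for Rdx, Msn and Nf2 and 1 of 9 for Slc9a3r1 and Slc9a3r2. The exceptions included CyrKO, where replicates 2 and 3 had 22.7 and 22.9 CPM of Ezr with sums of 36.6 and 33.7 CPM. They also included wild-type cerebellum of experiment 2, where the sums ran only from 35.2 to 40.9 CPM. There replicate 1 had the highest Ezr level, 18.6 CPM, with the lowest sum, and replicate 2 had 17.0 CPM with the highest.

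**Figure D3:**
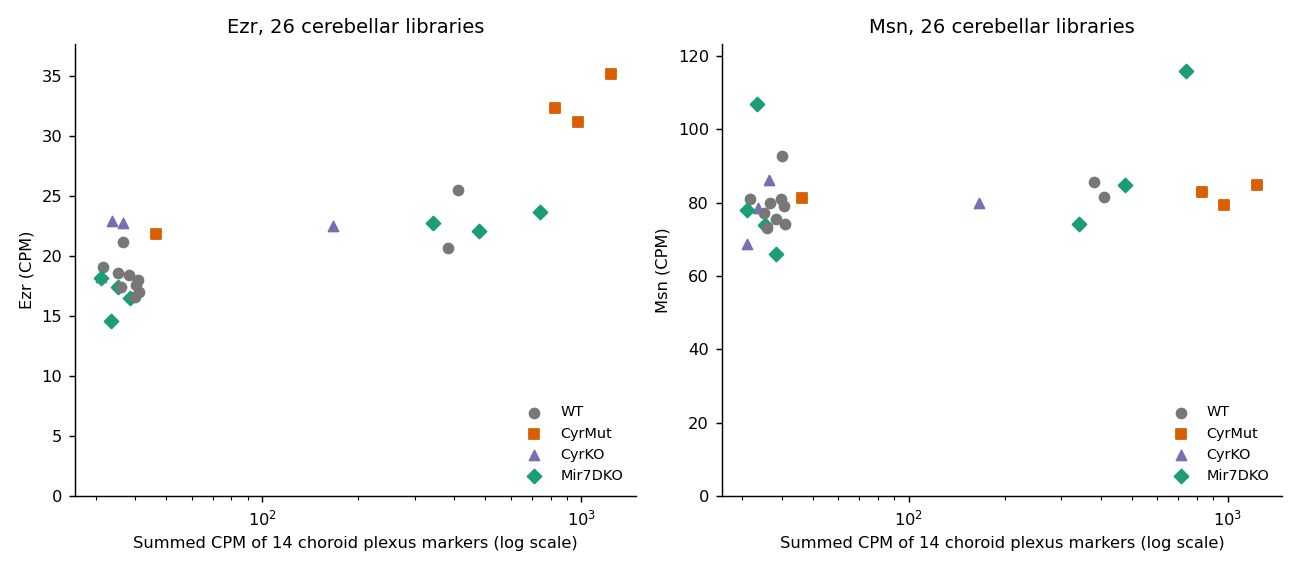
Level of Ezr (left) and Msn (right) in CPM against the summed CPM of 14 choroid plexus markers (log scale) in the 26 cerebellar libraries, each point a library and each mark a genotype. The 3 CyrMut libraries with sums of 827.4 to 1234 CPM hold Ezr at 31.2 to 35.2 CPM, while Msn in the same libraries lies at 79.3 to 84.7 CPM.

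Msn was the member chosen for its change in the Mir7DKO cerebellum of experiment 2, and its values there are a description. It lay at 77.1, 74.1, 81.1 and 73.1 CPM in the wild types and at 116.1, 84.8 and 107.0 CPM in the Mir7DKO libraries. Every Mir7DKO library was above every wild type, and Mir7DKO replicate 2 was the closest to them. The mean was 76.3 ± 3.57 CPM (n = 4) against 102.6 ± 16.1 CPM (n = 3), a log2 change of 0.43 (SE 0.079), and the authors' deposited table lists 0.43 for Msn with an adjusted p of 0.00255. In the edgeR fit 1 of 6 members and 0.198% of the 14146 genes passed, and nothing is read from this count because the comparison was used in the choice. Groups did not overlap in 6.7% of genes. With 1 library left out the log2 change of Msn ran from 0.33, without Mir7DKO replicate 1, to 0.55, without Mir7DKO replicate 2.

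Choroid plexus markers summed to 740.2, 477.0 and 33.4 CPM in these Mir7DKO libraries and to between 35.2 and 40.9 CPM in the wild types. Msn was at 107.0 CPM in the Mir7DKO library with the lowest sum, replicate 3, which is above its level of 84.8 CPM in replicate 2. With the choroid plexus index in the fit the log2 change of Msn was 0.45 (SE 0.11). Microglia markers summed to 121.1 to 129.9 CPM in Mir7DKO and 116.0 to 128.7 CPM in wild type, and endothelial markers to 329.5 to 343.4 CPM and 307.3 to 327.6 CPM. The endothelial sums did not overlap between the groups, and neither did the ependymal sums, at 11.53 to 12.03 CPM in Mir7DKO and 8.10 to 11.03 CPM in wild type. All 7 meningeal fibroblast markers had higher means in Mir7DKO (median log2 change 0.20), with sums of 275.3 to 308.7 CPM against 227.2 to 295.9 CPM. The part of these cell types in the level of Msn was not tested.

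The same genotype did not show a higher Msn level elsewhere. In experiment 1B, Msn lay at 75.6, 81.6, 80.1 and 81.5 CPM in the wild-type cerebella and at 66.1, 78.2, 74.0 and 74.2 CPM in the Mir7DKO cerebella. The groups overlapped and the log2 change was -0.12 (SE 0.064, edgeR adjusted p = 0.9997). In cortex of experiment 2, Msn lay at 36.7, 37.2, 37.3 and 36.004 CPM in wild type and at 35.1, 39.8 and 35.1 CPM in Mir7DKO, with a log2 change of 4.57e-05 (SE 0.07, edgeR adjusted p = 0.9998). The change in cortex minus that in cerebellum was -0.43 (SE 0.12) for Msn, which is a description because the cerebellar change chose the gene. In that fit of all 4 groups 0.155% of 14886 genes passed.

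The other members of the Mir7DKO cerebellum of experiment 2 are likewise a description. Slc9a3r2 lay at 69.6, 62.5, 61.2 and 68.5 CPM in wild type and at 71.0, 71.4 and 74.8 CPM in Mir7DKO, without overlap, a log2 change of 0.15 (SE 0.063). Ezr had a log2 change of 0.21 (SE 0.12) with groups that overlapped, and of -0.23 (SE 0.14) when the choroid plexus index entered the fit. Rdx, Nf2 and Slc9a3r1 had log2 changes of 0.03 (SE 0.054), 0.003 (SE 0.057) and -0.10 (SE 0.075). The change in cortex minus that in cerebellum was -0.32 (SE 0.15) for Ezr and -0.27 (SE 0.11) for Slc9a3r2.

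In the other 3 mutant comparisons no member was called. In the CyrKO cerebellum of experiment 1B, 0 of 6 members passed the edgeR test against 0.022% of the 13664 genes tested. In the Mir7DKO cerebellum of experiment 1B it was 0 of 6 against 0.00713% of 14031, and in the Mir7DKO cortex 0 of 6 against 0.0436% of 13754. At an unadjusted p under 0.05 the count was also 0 of 6 in each of these comparisons, and DESeq2 called 0. Over all genes, that edgeR threshold held for 1004 of 13664 in CyrKO, 516 of 14031 in Mir7DKO cerebellum and 793 of 13754 in Mir7DKO cortex. The largest log2 changes in these 3 comparisons were those of Slc9a3r1 and Slc9a3r2 in CyrKO and Ezr in Mir7DKO of experiment 1B.

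In CyrKO, Slc9a3r1 lay at 35.1, 38.2, 44.2 and 47.0 CPM in wild type and at 32.7, 39.9, 38.1 and 35.6 CPM in the mutant, a log2 change of -0.17 (SE 0.099, edgeR adjusted p = 0.708). Slc9a3r2 lay at 65.5, 64.7, 72.0 and 80.9 CPM in wild type and at 58.0, 69.9, 62.9 and 62.1 CPM in CyrKO, a log2 change of -0.16 (SE 0.083, edgeR adjusted p = 0.691). In both genes the same 2 wild-type libraries, replicates 3 and 4, were the highest, and the groups overlapped. Ezr, with both of its 7-base matches shown above, had a log2 change of 0.04 (SE 0.12) in CyrKO, -0.16 (SE 0.12) in Mir7DKO of experiment 1B and -0.11 (SE 0.076) in Mir7DKO cortex. Rdx, with no 7-base match, had changes of 0.08 (SE 0.061), -0.05 (SE 0.065) and 0.01 (SE 0.062) in the same order. The 2 comparisons of experiment 1B share their wild-type libraries, so their values are not independent.

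Nf2 was the member that varied least. Its log2 changes in the 5 mutant comparisons ran from -0.06 (SE 0.051) in CyrMut to 0.05 (SE 0.054) in Mir7DKO cortex. Within groups its SD on the log2 scale was 0.06, at the 4.04 percentile of the 11387 genes with a mean of at least 5 CPM. The SD was 0.20 for Ezr, at the 89.2 percentile, 0.15 for Slc9a3r1, 0.13 for Slc9a3r2, 0.10 for Msn and 0.08 for Rdx. In Mir7DKO cortex Nf2 lay at 113.3, 113.0 and 113.8 CPM and in wild-type cortex at 108.1, 106.2, 117.9 and 107.3 CPM.

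**Figure D4:**
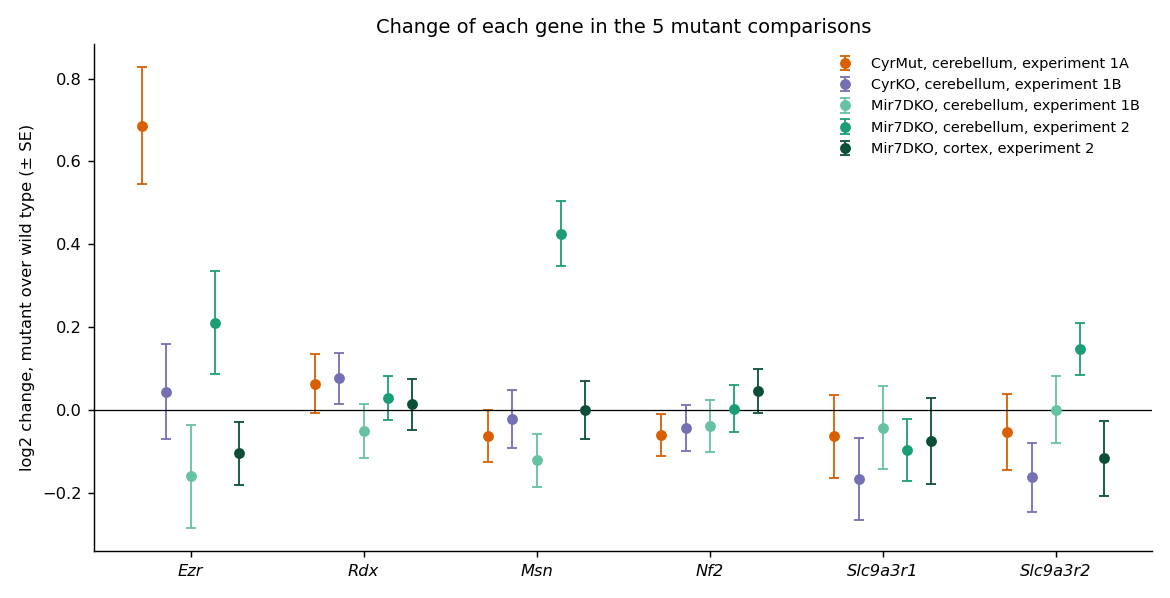
Log2 change of each of the 6 genes, mutant over wild type (vertical axis, ± SE), in the 5 mutant comparisons (colours). Ezr in CyrMut, at 0.69, and Msn in Mir7DKO cerebellum of experiment 2, at 0.43, chose the members; in the comparisons that did not choose them, all changes lie between -0.17 and 0.08.

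Other genes of the ERM and Hippo pathways were taken from 5 lists of 77 genes made for their function. In each of the 5 mutant comparisons 0 of the 70 or 71 list genes tested passed the edgeR test, and DESeq2 called 0 in each. At an unadjusted edgeR p under 0.05 the list genes numbered 2 in CyrMut, 1 in CyrKO and 2 in Mir7DKO of experiment 1B. In experiment 2 they numbered 5 in cerebellum and 6 in cortex. Over all genes tested the same threshold held for 740 of 14866 in CyrMut, 1004 of 13664 in CyrKO and 516 of 14031 in Mir7DKO of experiment 1B. For experiment 2 it held for 959 of 14146 in cerebellum and 793 of 13754 in cortex. The median log2 change of a list lay between -0.07 and 0.12 in these comparisons.

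Between the wild-type tissues, 58 of the 73 list genes tested passed the edgeR test against 74.7% of all genes, of which 5218 were higher and 5237 lower among 14001. The counts given by list are of genes that passed. Of the kinases, phosphatases and lipid kinases that open or close ERM proteins, all 14 passed, 6 higher and 8 lower in cerebellum (median log2 change -0.16). Stk10, a kinase that phosphorylates the ERM tail, rose from 7.52 ± 1.68 CPM in cortex to 26.4 ± 1.76 CPM in cerebellum, a log2 change of 1.80 (SE 0.12). Pip5k1b, which makes PIP2, rose by 1.42 (SE 0.083) toward cerebellum. Stk26, a kinase listed in the tables as 2610018G03Rik, was at 10.7 ± 3.30 CPM in cortex and 0.69 ± 0.20 CPM in cerebellum, a log2 change of -3.93 (SE 0.28).

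Of 11 tested membrane proteins that bind ERM proteins, 1 passed as higher and 7 as lower in cerebellum (median log2 change over all 11, -0.29). Icam5, an adhesion molecule of forebrain neurons that binds the ERM FERM domain, was at 132.8 ± 4.48 CPM in cortex and 0.38 ± 0.24 CPM in cerebellum, a log2 change of -8.34 (SE 0.13). Selplg, a selectin ligand of leukocytes, had a log2 change of -1.82 (SE 0.15), beside the lower microglia markers. Vcam1, an adhesion molecule, had a change of -0.95 (SE 0.079). Cd44, the hyaluronan receptor, was the gene of this list that passed as higher, by 1.02 (SE 0.14), at 12.5 ± 1.65 CPM in cerebellum.

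Of 17 other genes with a FERM domain, 5 passed as higher and 6 as lower in cerebellum (median 0.06). Epb4.1, which encodes the cytoskeletal protein 4.1R, was at 51.9 ± 4.93 CPM in cortex and 402.9 ± 3.03 CPM in cerebellum, a log2 change of 2.96 (SE 0.053). Epb4.1l4b rose by 1.52 (SE 0.052), Epb4.1l2 fell by 1.503 (SE 0.06) and Tln2, a talin that links integrins to actin, fell by 0.81 (SE 0.043) toward cerebellum.

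Of 19 tested genes of the Hippo pathway, in which merlin acts, 11 passed as higher and 4 as lower in cerebellum (median 0.31). The kinase Lats2 rose from 26.5 ± 1.27 to 69.5 ± 4.31 CPM, a log2 change of 1.39 (SE 0.066), and the transcription factor Tead4 rose from 0.73 ± 0.08 to 11.4 ± 0.70 CPM (3.95, SE 0.20). Wwc1 (KIBRA), a partner of merlin, fell by 1.65 (SE 0.053) and Ctgf, a target gene of the pathway, fell by 2.84 (SE 0.1) toward cerebellum. Nf2 itself, at -0.37, was on the side of Wwc1 and Ctgf.

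Of 12 tested genes whose proteins bind NHERF PDZ domains, 4 passed as higher and 6 as lower in cerebellum (median -0.20). The glutamate transporter Slc1a2 was at 5041 ± 152 CPM in cortex and 1399 ± 26.5 CPM in cerebellum, a log2 change of -1.85 (SE 0.041). The other glial glutamate transporter, Slc1a3, was at 639 ± 21.6 and 1609 ± 47.5 CPM, a change of 1.33 (SE 0.04). Plcb1, a phospholipase, fell by 1.79 (SE 0.046) and Pdgfra, a receptor of oligodendrocyte precursors, fell by 1.34 (SE 0.062) toward cerebellum. The adjusted p of the genes named from the 5 lists was at most 7.43e-07, that of Cd44.

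**Figure D5:**
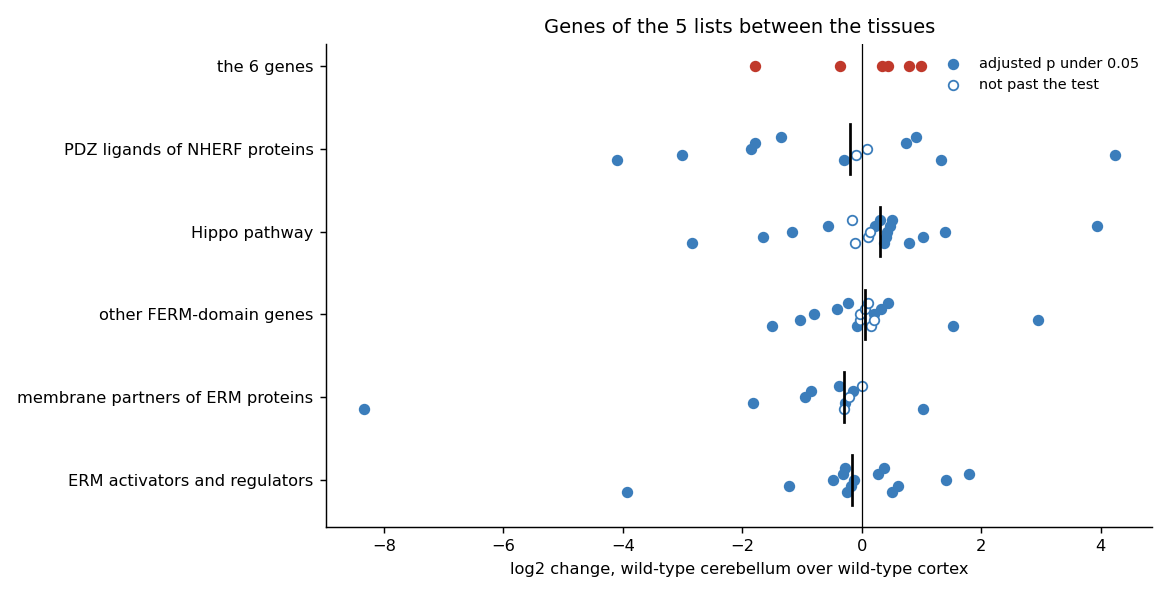
Log2 change from wild-type cortex to wild-type cerebellum (horizontal axis) of the tested genes of 5 pathway lists and of the 6 genes (rows); each point is a gene, filled blue where the edgeR adjusted p is under 0.05, and black bars are list medians. Medians lie between -0.29 and 0.31, and Icam5 at -8.34 is the point farthest left.

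The genes whose level followed each member most closely were found by the correlation of log2(CPM + 1), after the mean of each group was subtracted, over all 33 libraries and 11387 genes. These correlations are descriptions, and the libraries share depth, tissue handling and wild types. For Ezr they were Car12, a carbonic anhydrase (Pearson coefficient 0.90, Spearman coefficient 0.84), Kl, the klotho co-receptor (0.86, 0.79), and Ace, the angiotensin-converting enzyme (0.85, 0.83). All 3 are known to be expressed in choroid plexus, Kl is 1 of the 14 markers, and the libraries fall into a low and a high set by the choroid plexus sum. For Msn they were Ddost (0.68, 0.54), Gpr12 (0.68, 0.56) and Tspan3 (0.68, 0.55).

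For Rdx the closest genes were Srr, the serine racemase (Pearson 0.78, Spearman 0.78), Ppm1k (0.77, 0.77) and Zmym2 (0.77, 0.78), and for Nf2 they were Ttll11 (0.72, 0.76), Nicn1 (0.70, 0.66) and Dalrd3 (0.68, 0.55). For Slc9a3r1 they were Phf21b (0.80, 0.79), Numbl (0.77, 0.73) and Dlgap3 (0.74, 0.78), and for Slc9a3r2 Sap30bp (0.80, 0.81), Csnk2b (0.79, 0.77) and Agap2 (0.78, 0.83). No member was among the closest genes of another. Among the members themselves r was 0.42 between Slc9a3r1 and Slc9a3r2 and -0.56 between Rdx and Slc9a3r2, and it was 0.20 between Ezr and Msn.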

How the data were processed

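Polyadenylated RNA of cerebellum and cortex was sequenced in 33 strand-specific libraries, per the labels' protocols. The authors deposited 1 table per mutant comparison. Its raw columns are counts of reads for each gene, unscaled, per the file headers. The deposited tables also give the authors' log2 fold change, p-value and adjusted p-value, which are quoted only where named. STAR 2.4, HTSeq 0.6.1p1, DESeq2 1.10 and GRCm38 appear in the submitters' processing notes. The sources used here do not give whether reads were counted by strand. The 37 further per-sample columns, which hold normalised values, were not used.

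Each comparison was fitted alone in edgeR 4.0.16 under R 4.3.3. Low genes were removed by filterByExpr (minimum count 10), libraries were scaled by TMM, and p-values of the quasi-likelihood F-test were adjusted by Benjamini-Hochberg over all genes tested, with a threshold of 0.05. For the tissue comparison the counts of both tables of experiment 2 were joined and scaled together. An SE is the size of the log2 change divided by the root of F. The spread covers these libraries only. Shares were compared by an exact permutation test. No 2 libraries of the same group agreed within sampling noise. The fits of the mutant comparisons were run on simulated data with known changes, and the outcome is not reported here. The fits of the tissue comparison and of the difference between tissues were not simulated.

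The members and lists were chosen with earlier results of these data known. The text names all 6 members, at most 4 called genes a list by smallest p (1 of them is not reported here), and the 3 closest genes of each member. All 77 list genes were matched, 8 of them by gene ID. Alternatives were other scalings and filters, DESeq2 1.42.0, leaving out a library, a replicate block, the choroid plexus index, joint fits and other lengths.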

Additional observations from a re-analysis of the deposited data

Results flagged for a closer look

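In the groups of 4 libraries, 36 pairs of a member and a group were checked for a library far from the other 3, and 3 were found, where chance flags about 1 in 20. Ezr in CyrKO cerebellum of experiment 1B was at 18.3 CPM in replicate 4 and between 22.5 and 22.9 CPM in the others. Slc9a3r1 in Mir7DKO cerebellum of experiment 1B was at 34.2 CPM in replicate 1 and between 41.5 and 42.1 CPM in the others. Nf2 in wild-type cortex of experiment 2 was at 117.9 CPM in replicate 3 and between 106.2 and 108.1 CPM in the others.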

How the results depend on the processing

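Between the wild-type tissues all 6 members passed in the same direction under every alternative, as did the 3 shares. In CyrKO, Mir7DKO cerebellum of experiment 1B and Mir7DKO cortex 0 of 6 passed under every alternative. Counts of called genes moved as follows. In CyrMut, 1 gene became 4 with DESeq2, 43 with no filter and 1 to 17 with a library left out. In CyrKO, 3 became 10 with no filter and 3 to 10 with a library left out. In Mir7DKO cerebellum of experiment 1B, 1 became 3 with DESeq2, 4 with no filter, 0 at a mean CPM of at least 5, 2 with a replicate block and 0 to 2 with a library left out. In that of experiment 2, 28 became 184 with no filter, 8 at a mean CPM of at least 5, 15 with the choroid plexus index, 55 with all 4 groups in 1 fit and 3 to 70 with a library left out. In cortex, 6 became 48 with no filter, 19 with a replicate block and 4 to 11 with a library left out. The difference between tissues went from 23 to 12 with DESeq2 and 1 to 48 with a library left out. Members called in CyrMut went from 0 to 1, Ezr, with DESeq2 and with no filter, and to 0 to 1 with a library left out (1 without CyrMut replicate 2). In Mir7DKO cerebellum of experiment 2 the 1 call, Msn, became 0 with the choroid plexus index and 0 to 1 with a library left out (0 without wild-type replicate 1, 2 or 4 or Mir7DKO replicate 1). For the difference between tissues it was 0 to 1 with a library left out (1 without Mir7DKO cerebellum replicate 2). These counts are descriptions, since those comparisons were used in the choice of Ezr and Msn. No called value changed sign. Among uncalled log2 changes, Ezr in Mir7DKO cerebellum of experiment 2 went from 0.21 to -0.23 with the choroid plexus index. Slc9a3r2 in Mir7DKO of experiment 1B was at -0.00026 with DESeq2, at -0.0025 with 3 groups in 1 fit and at -0.040 to 0.075 with a library left out. Msn in cortex was at -0.0031 with DESeq2 size factors, -0.00029 with library size, -0.0042 with DESeq2, -0.0046 at a mean CPM of at least 5, -0.014 with a replicate block, -0.0093 with the choroid plexus index, -0.00026 with 4 groups in 1 fit and -0.071 to 0.032 with a library left out. With a library left out, CyrKO gave -0.015 to 0.14 for Ezr and -0.070 to 0.036 for Msn, Mir7DKO of experiment 1B gave -0.12 to 0.035 for Slc9a3r1, and cortex gave -0.039 to 0.057 for Rdx and -0.24 to 0.014 for Slc9a3r1. The cause was not tested. Deviations of libraries with the same number correlated between -0.35 and 0.57, and the numbers were not taken to pair them, although each Mir7DKO cortex correlated best with its own number. With a replicate block Ezr in CyrMut was at 0.62 and Msn in Mir7DKO cerebellum of experiment 2 at 0.40, and no member's call changed. Counts of 156 to 769 limit the precision for Ezr.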
